A study of Solanum lycopersicum with 18 samples.

Results

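Described here are 4 tomato genes whose names place them among the evening genes of the plant circadian clock: the GIGANTEA-like gene LOC101258346, the GIGANTEA gene LOC101255788, the APRR1 gene LOC101259163 and the APRR5 gene LOC101256648. They were picked out by gene ID and name from the 23808 genes of the deposited table, with earlier results of these data known. Leaf RNA of the cultivar Micro-TOM (MT), a dwarf laboratory tomato, and of a second material named Micro-TOM-EX (EX) was sequenced at 0, 2 and 8 h of NaCl treatment. There were 6 groups with 3 libraries apiece (18 together), and a library is named by material, hour and replicate, as MT0r1. The sources used here give neither what sets Micro-TOM-EX apart, nor the salt dose, nor the clock hour of sampling. Both materials were raised in pots of soil under greenhouse conditions, with 16 h of light. Untreated leaves of 2 h and 8 h were not analysed here, so salt and time of day cannot be told apart in any comparison of hours.

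The plant clock is a loop of genes that repress each other in turn through the day. In Arabidopsis the morning factors LHY and CCA1 repress the evening genes, the pseudo-response regulators PRR9, PRR7, PRR5 and TOC1 peak after them in that order and repress the morning factors, and the evening complex of ELF3, ELF4 and LUX closes the night. APRR1 is another name of TOC1. GIGANTEA is a large plant protein of late day that steadies the blue-light F-box proteins ZEITLUPE and FKF1, through which cyclic dof factors are degraded and CONSTANS is released. In Arabidopsis GIGANTEA also holds back the salt kinase SOS2, and salt leads to the breakdown of GIGANTEA protein.

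Values are FPKM, which count sequenced fragments relative to transcript length and library depth, so levels of different genes can be set side by side. Changes are differences in log2(FPKM + 1) with their standard error (SE), tested with limma over all 18402 genes that reached 1 FPKM in at least 3 libraries, with 0.05 as the threshold on the adjusted p. The added 1 makes a change from a level under 1 FPKM smaller than the ratio of the levels. Whether the 3 libraries were made from different plants is not in the labels, and the p-values therefore describe only how far these samples spread. In bulk leaf RNA, fewer cells of a type and less RNA per cell cannot be told apart. All 4 genes were tested, but APRR5 only through the 3 Micro-TOM-EX libraries of 0 h, the sole libraries in which it reached 1 FPKM. A gene tested only through its high group had to differ there, so its values are given as a description. For APRR5, values of a limma fit of all 23808 genes stand beside them, which a gene enters with any library above 0.

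Depth was 18.5 to 20.05 M (mega) fragments per library, as worked out from the spacing of low FPKM values. Libraries of the same group correlated at 0.965 to 0.993 on the log2 scale. MT0r2 and EX0r2 stood apart from the rest of their groups, at 0.965 to 0.978 and 0.969 to 0.976 against 0.991 and 0.993 between the other 2 libraries. None of 29 mesophyll marker genes (Rubisco small subunits and chlorophyll a-b binding proteins) was at 0 in all 18 libraries. Their summed level was 30127 to 44170 FPKM in MT and 43768 to 46445 in EX at 0 h. It was 10778 to 17631 and 12048 to 32166 at 2 h, then 6793 to 18680 and 6994 to 16937 at 8 h. The part of this lower mesophyll sum in the changes between hours was not tested.

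The GIGANTEA-like gene (chromosome 12, 62627842 to 62641847, minus strand, coordinates as deposited, of an unnamed build) was nearly silent at 0 h and among the most abundant transcripts at 8 h. Its level in the 3 Micro-TOM libraries was 0.1, 0.07 and 0.06 FPKM at 0 h, 45.97, 54.84 and 53.35 at 2 h, and 142.48, 143.88 and 148.88 at 8 h. In Micro-TOM-EX it was 0.11, 0.78 and 0.17 FPKM at 0 h, 54.23, 88.65 and 60.78 at 2 h, and 152.29, 153.82 and 128.39 at 8 h. In both materials the 3 hours formed separate, rising steps with no overlap. By level it ranked 19467th to 20288th of 23808 genes in the Micro-TOM libraries of 0 h and 796th to 870th in those of 8 h.

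In Micro-TOM the GIGANTEA-like gene rose by 5.60 (SE 0.177, adjusted p = 1.8e-12) on the log2(FPKM + 1) scale from 0 h to 2 h and by a further 1.48 (adjusted p = 2e-06) from 2 h to 8 h. In Micro-TOM-EX the same steps were 5.67 (adjusted p = 1.7e-12) and 1.11 (adjusted p = 4.2e-05). Over the whole 8 h the rise of 7.08 in Micro-TOM was the 27th highest of the 18402 changes, and that of 6.78 in Micro-TOM-EX the 26th highest. As a ratio of mean FPKM the level at 8 h was 1892 times that at 0 h in Micro-TOM and 410 times in Micro-TOM-EX, both resting on 0 h levels under 1 FPKM. Without EX0r2 the Micro-TOM-EX ratio was 1035, and without MT0r2 the Micro-TOM ratio 1814. In the authors' deposited table the log2 ratio of 8 h to 0 h was 10.83 in Micro-TOM and 8.35 in Micro-TOM-EX. Without MT0r2 and EX0r2, of which EX0r2 held the highest 0 h level, the changes were 7.08 and 6.995.

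GIGANTEA (chromosome 4, 59013119 to 59055140, minus strand) rose late. In Micro-TOM it read 0.77, 0.29 and 0.48 FPKM at 0 h, 3.45, 5.1 and 4.36 at 2 h, and 79.95, 77.78 and 86.55 at 8 h. In Micro-TOM-EX it read 0.63, 0.77 and 0.36 FPKM at 0 h, 2.65, 3.72 and 2.08 at 2 h, and 75.53, 71.2 and 75.4 at 8 h. The hours again did not overlap in either material, but nearly all of the increase lay after 2 h. At 2 h its mean was 5.28% of its 8 h mean in Micro-TOM and 3.80% in Micro-TOM-EX, whereas the GIGANTEA-like gene had reached 35.4% and 46.9%.

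From 0 h to 2 h GIGANTEA rose by 1.81 (SE 0.165, adjusted p = 7.7e-08) in Micro-TOM and by 1.25 (adjusted p = 4.2e-06) in Micro-TOM-EX. From 2 h to 8 h it rose by 3.97 (adjusted p = 4.2e-11) and 4.32 (adjusted p = 1.8e-11), the 89th and 78th highest of all changes in that step. The GIGANTEA-like gene, with the larger early step, ranked 1966th and 3358th there.

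**Figure D1:**
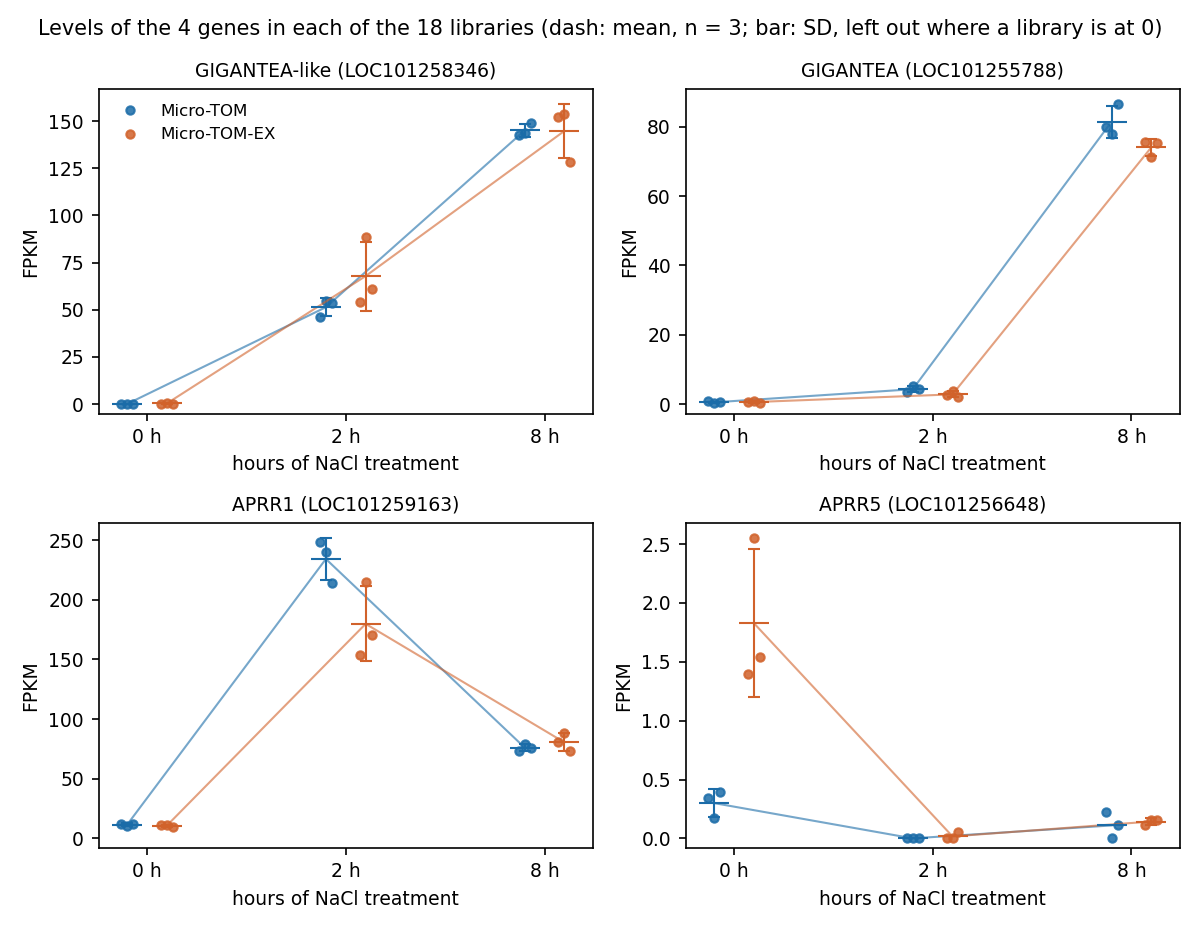
Level in FPKM (vertical axis, a separate linear scale in each panel) of the 4 genes at 0, 2 and 8 h of NaCl treatment, drawn at even spacing, with 1 point per library in blue for Micro-TOM and orange for Micro-TOM-EX, dashes at the means and bars for the SD (n = 3, left out where a library is at 0). The GIGANTEA-like gene rises in steps to 128.39 to 153.82 FPKM at 8 h, GIGANTEA is at or below 5.1 until 2 h, APRR1 peaks at 2 h, and APRR5 is above 1 FPKM only in Micro-TOM-EX at 0 h.

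The shares of the 2 GIGANTEA genes in their summed level shifted between hours. The GIGANTEA-like gene made up 11.49, 19.44 and 11.11% of their summed FPKM in the Micro-TOM libraries of 0 h, 93.02, 91.49 and 92.44% at 2 h, and 64.06, 64.91 and 63.24% at 8 h. In Micro-TOM-EX its share was 14.86, 50.32 and 32.08% at 0 h, 95.34, 95.97 and 96.69% at 2 h, and 66.85, 68.36 and 63.0% at 8 h. The share was highest at 2 h in all 6 libraries of that hour and scattered at 0 h, where the summed level was 0.59 ± 0.259 FPKM (SD, n = 3) in Micro-TOM and 0.94 ± 0.539 in Micro-TOM-EX.

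Whether the 2 genes moved by unequal amounts was tested on the log2 ratio of GIGANTEA-like to GIGANTEA, each with 1 FPKM added. That ratio was -0.37 ± 0.254 at 0 h, 3.74 ± 0.491 at 2 h and 0.89 ± 0.135 at 8 h (SD, 6 libraries each, both materials together). It rose by 4.11 from 0 h to 2 h and fell by 2.85 from 2 h to 8 h, and the later level was still 1.26 above that of 0 h. In each of these 3 comparisons the exact two-sided permutation test, with hours exchanged within each material, gave p = 0.005, the smallest its 400 arrangements allow, and an adjusted p of 0.005 over 6 such tests. The other 3 tests, of the ratio of APRR1 to APRR5, gave the same p and are not read further, because APRR5 was near 0 and the ratio followed APRR1. The genes are related copies, and the sources used here do not say how reads shared by both were divided.

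**Figure D2:**
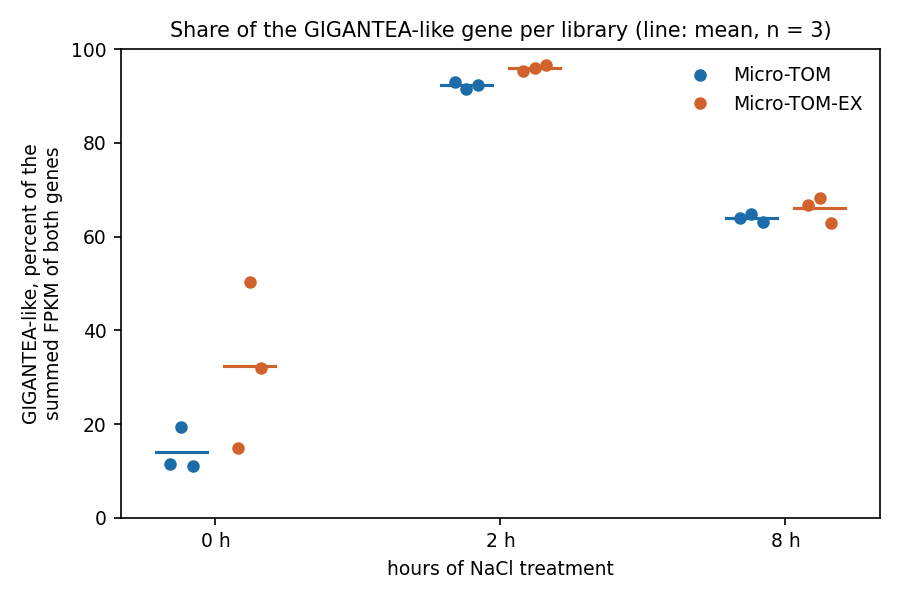
Share of the GIGANTEA-like gene in the summed FPKM of both GIGANTEA genes (vertical axis, percent) at 0, 2 and 8 h of NaCl treatment, drawn at even spacing, with 1 point per library and a line at the mean of 3. The 6 libraries of 2 h lie between 91.49 and 96.69%, those of 8 h between 63.0 and 68.36%, and those of 0 h between 11.11 and 50.32%.

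APRR1 (chromosome 6, 43402902 to 43408977, minus strand), the TOC1 counterpart and a repressor of morning genes in Arabidopsis, peaked at 2 h. In Micro-TOM it stood at 12.29, 9.98 and 11.97 FPKM at 0 h, 248.62, 239.9 and 214.29 at 2 h, and 73.27, 79.05 and 75.96 at 8 h. In Micro-TOM-EX it stood at 11.23, 11.06 and 9.81 FPKM at 0 h, 154, 215 and 170.61 at 2 h, and 80.45, 88.04 and 72.92 at 8 h. It was the only gene of the 4 well expressed at every hour, and its hours did not overlap within a material. The libraries of 2 h placed it 447th to 574th by level in Micro-TOM and 622nd to 847th in Micro-TOM-EX, above every library of 0 h and 8 h.

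In Micro-TOM APRR1 rose by 4.25 (SE 0.122, adjusted p = 1.3e-12) from 0 h to 2 h, which is 20.5 times in mean FPKM, and fell by 1.61 (adjusted p = 1.4e-08) from 2 h to 8 h. In Micro-TOM-EX it rose by 3.94 (adjusted p = 1.7e-12), or 16.8 times in mean FPKM, and fell by 1.14 (adjusted p = 5.9e-07). The 8 h mean was 32.5% of the 2 h mean in Micro-TOM and 44.7% in Micro-TOM-EX. At 8 h the level still exceeded that of 0 h, by 2.64 (adjusted p = 4.3e-11) and 2.80 (adjusted p = 2.7e-11).

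APRR5 (LOC101256648; chromosome 11, 56038373 to 56040448, plus strand) was the exception. In Micro-TOM it read 0.34, 0.17 and 0.39 FPKM at 0 h, or 6, 3 and 7 fragments, had every library of 2 h listed at 0, and read 0.22, 0 and 0.11 at 8 h. In Micro-TOM-EX it read 1.4, 2.55 and 1.54 FPKM at 0 h, or 25, 45 and 28 fragments, then 0, 0 and 0.05 at 2 h and 0.11, 0.16 and 0.16 at 8 h. Only the 3 Micro-TOM-EX libraries of 0 h held more than 7 fragments, and 3 fragments correspond to 0.158 to 0.172 FPKM. A count of 0 allows a level up to that value, so absence at 2 h is not shown. These limits cover counting error only.

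Within Micro-TOM-EX, APRR5 fell by 1.46 (SE 0.138, adjusted p = 1e-07; 3.9e-08 in the fit of all genes) from 0 h to 2 h and by 1.29 (adjusted p = 5e-07; 1.6e-07) from 0 h to 8 h. In Micro-TOM it fell by 0.375 (adjusted p = 0.022; 0.01) from 0 h to 2 h, and the change from 0 h to 8 h was -0.23 (adjusted p = 0.15; 0.1). The Micro-TOM call at 2 h was lost without MT0r1 (-0.35, adjusted p = 0.059), without MT0r3 (-0.32, adjusted p = 0.078), and with a replicate block within each hour (adjusted p = 0.057). With 0.1 in place of 1 added, the Micro-TOM change from 0 h to 8 h was -1.04 (adjusted p = 0.038).

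LOC101256648 differed in annotation and in course from its namesakes. Its orthology entry does not name a pseudo-response regulator, whereas the entries of the other 2 genes named APRR5 do. The better expressed of these, LOC101250283, read 0.09, 0.16 and 0.02 FPKM at 0 h, 6.69, 3.76 and 6.21 at 2 h and 38.61, 43.66 and 38.98 at 8 h in Micro-TOM. In Micro-TOM-EX it read 0.15, 0.41 and 0.15, then 1.38, 3.07 and 1.63, then 36.48, 39.78 and 28.38. It thus rose from 0 h in Micro-TOM-EX, where LOC101256648 fell. In Micro-TOM the change of LOC101256648 from 0 h to 8 h did not pass. From 0 h to 8 h LOC101250283 rose by 5.25 (SE 0.206, adjusted p = 8e-12) in Micro-TOM and 4.85 (adjusted p = 2.1e-11) in Micro-TOM-EX. The remaining APRR5 gene, LOC101258043, was low, with group means of 0.163 FPKM at 0 h and 3.90 at 8 h in Micro-TOM and 0.187 and 4.75 in Micro-TOM-EX. Its changes from 0 h to 8 h were 2.07 and 2.28. It reached 1 FPKM in the libraries of 8 h alone and was tested only through them, so these changes are a description. LOC101250283, LOC101258043 and the second APRR1 gene are named here because they share the names, after their values were seen.

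The second APRR1 gene, LOC101259425, changed little beside LOC101259163. Its group means in Micro-TOM were 11.4, 19.3 and 21.4 FPKM at 0, 2 and 8 h, and in Micro-TOM-EX 6.89, 11.4 and 11.7. From 0 h to 8 h it rose by 0.909 (SE 0.257, adjusted p = 0.0049) in Micro-TOM and 0.686 (adjusted p = 0.025) in Micro-TOM-EX. The latter call was lost without EX0r2 (0.642, adjusted p = 0.065), EX0r3 (0.645, adjusted p = 0.067) or EX8r1 (0.567, adjusted p = 0.095). At 0 h both APRR1 genes stood at 11.4 FPKM in Micro-TOM, and at 2 h LOC101259163 stood at 234 ± 17.8 and LOC101259425 at 19.3 ± 2.55 (SD, n = 3).

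**Figure D3:**
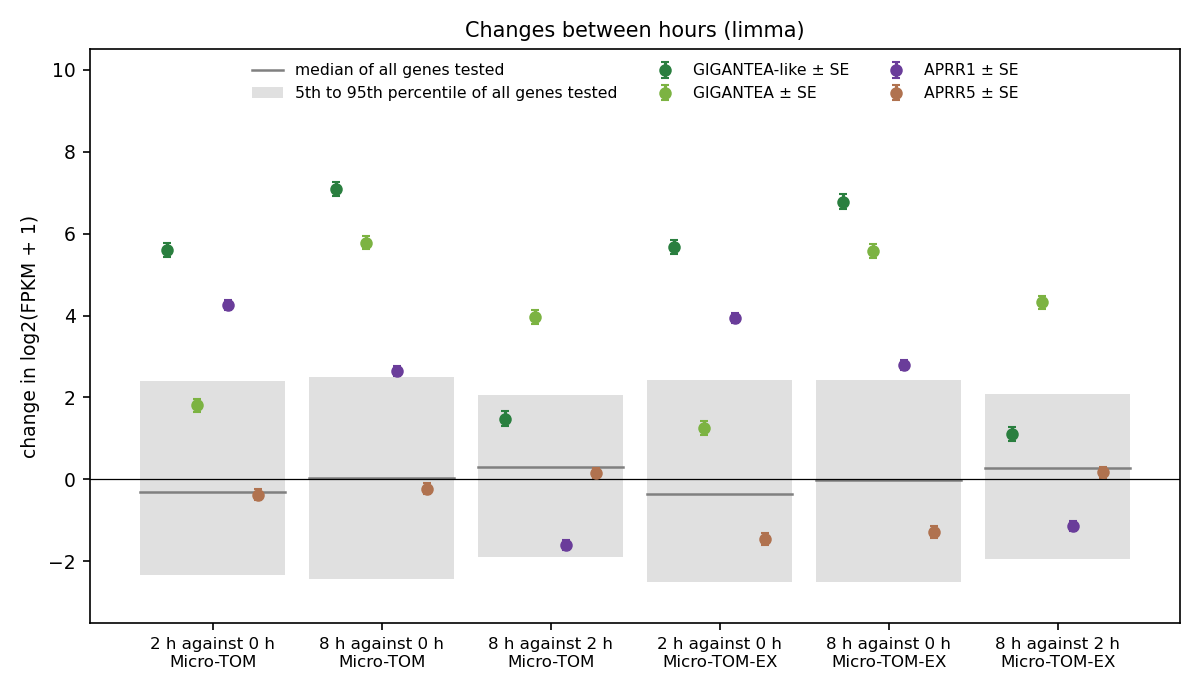
Changes in log2(FPKM + 1) between hours (vertical axis) for the 4 genes, with bars for the SE, in the 6 comparisons of hours, over the range from the 5th to the 95th percentile of all 18402 genes tested (grey) and their median (line). The GIGANTEA-like gene and APRR1 lie above the grey range at 2 h and at 8 h against 0 h, and GIGANTEA lies above it at 8 h against 0 h and at 8 h against 2 h.

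Most genes changed between hours, so the number of members called says little by itself, and the calls of APRR5 add nothing to it because its test depended on its level. From 0 h to 2 h 3 of the 4 rose and APRR5 fell in each material, while 27.5% of all genes tested rose and 47.5% fell in Micro-TOM (74.9% called) and 26.7% and 49.2% in Micro-TOM-EX (75.9% called). From 0 h to 8 h the same 3 rose in each material, and APRR5 passed as lower in Micro-TOM-EX and not in Micro-TOM. Over that step 37.0% of all genes rose and 33.6% fell in Micro-TOM (70.6% called), and 35.5% and 35.8% in Micro-TOM-EX (71.3%). From 2 h to 8 h the 2 GIGANTEA genes rose and APRR1 fell in each material, against 46.0% of genes higher and 23.7% lower in Micro-TOM (69.8% called) and 45.3% and 23.7% in Micro-TOM-EX (69.0%). Scaling the libraries by their median ratio moved the median change of all genes at 2 h against 0 h by 0.278 in Micro-TOM and 0.358 in Micro-TOM-EX, and by -0.328 and -0.315 at 8 h against 2 h. Under that scaling the genes higher and lower at 2 h than at 0 h numbered 6521 and 6790 in Micro-TOM (5055 and 8734 without it) and 6721 and 6814 in Micro-TOM-EX (4919 and 9049). At 8 h against 2 h they numbered 5872 and 6426 (8472 and 4365) and 5839 and 6368 (8336 and 4357). Every called change of the 4 genes between hours kept its direction and its call there.

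The comparison of the materials asked whether Micro-TOM-EX differed from Micro-TOM in these genes before and during salt. At 0 h 1 of the 4 was called, APRR5, as higher in Micro-TOM-EX, against 4.01% of all genes tested, 1.95% higher and 2.06% lower, shares that are not read against this call because its high 0 h level in Micro-TOM-EX admitted it to the test. Its Micro-TOM-EX libraries, at 1.4 to 2.55 FPKM, all lay above the Micro-TOM libraries, at 0.17 to 0.39. The difference was 1.10 (SE 0.138, adjusted p = 0.00021). In the fit of all genes its adjusted p was 7e-05, and in the authors' deposited table the log2 ratio was 1.95 with q = 0.00152. It did not pass when only the 0 h groups were fitted (adjusted p = 0.06). With any EX 0 h library left out APRR5 no longer met the level required for testing. By limma the other 3 genes differed at 0 h by 0.297 (GIGANTEA-like, adjusted p = 0.52), 0.072 (GIGANTEA, adjusted p = 0.92) and -0.08 (APRR1, adjusted p = 0.85). The GIGANTEA-like libraries did not overlap, at 0.11 to 0.78 FPKM in Micro-TOM-EX and 0.06 to 0.1 in Micro-TOM, all under 1 FPKM. How many of all genes were separated in this way is not given here, so the separation is not read as a difference. At 0 h the summed level of 7 guard cell marker genes was 22.63 to 39.94 FPKM in Micro-TOM-EX and 45.22 to 77.89 in Micro-TOM, and that of 18 trichome marker genes 42.72 to 57.35 and 34.34 to 41.3. Of these 5 and 6 genes were tested, and limma called none between the materials at 0 h. No gene of either list was at 0 in all 18 libraries, and the part of these differences in the APRR5 value was not tested.

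At 2 h 1 of the 4 was called, APRR1, against 13.7% of all genes tested, 6.22% higher and 7.48% lower. It was 0.391 (SE 0.122, adjusted p = 0.043) lower in Micro-TOM-EX on the log2(FPKM + 1) scale, at 180 ± 31.5 FPKM against 234 ± 17.8 (SD, n = 3), and EX2r2 at 215 lay above MT2r3 at 214.29. The call was lost with the 2 h groups alone (adjusted p = 0.13), under median-ratio scaling (-0.36, adjusted p = 0.11), in the authors' deposited table (log2 ratio -0.31, q = 0.312), and without MT2r1, MT2r2, EX2r1 or EX2r3, where the difference was -0.35 (adjusted p = 0.17), -0.37 (0.11), -0.29 (0.13) and -0.36 (0.15). GIGANTEA was at 2.82 ± 0.833 FPKM in Micro-TOM-EX and 4.30 ± 0.826 in Micro-TOM at 2 h, a difference of -0.48 (SE 0.165) that did not pass (adjusted p = 0.064). Without EX2r2 it did (-0.65, adjusted p = 0.022). The GIGANTEA-like gene, at 67.9 ± 18.3 against 51.4 ± 4.75 FPKM, differed by 0.367 (SE 0.177, adjusted p = 0.19).

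At 8 h none of the 4 was called by limma, at an unadjusted p under 0.05 or in the authors' deposited table, against 1.67% of all genes called by limma, 0.989% higher and 0.679% lower. The differences were -0.01 (SE 0.177) for the GIGANTEA-like gene, -0.13 (SE 0.165) for GIGANTEA, 0.076 (SE 0.122) for APRR1 and 0.047 (SE 0.138) for APRR5. The 3 Micro-TOM-EX values of GIGANTEA, up to 75.53 FPKM, lay below the lowest Micro-TOM value of 77.78 (limma adjusted p = 0.81), and for the other 3 genes the libraries overlapped. The share of all genes whose libraries did not overlap is not given here, so this separation is not read as a difference.

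**Figure D4:**
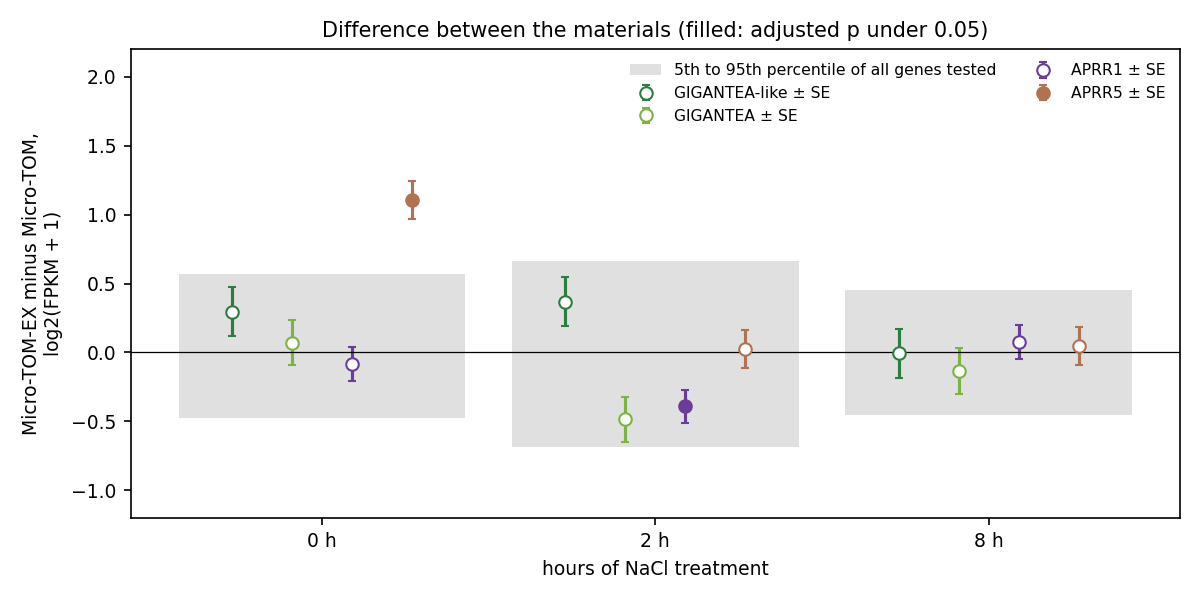
Micro-TOM-EX minus Micro-TOM in log2(FPKM + 1) (vertical axis) for the 4 genes, with bars for the SE, at 0, 2 and 8 h of NaCl treatment, over the range from the 5th to the 95th percentile of all genes tested (grey). Filled points passed the threshold: APRR5 at 0 h, at 1.10, lies above the grey range, and APRR1 at 2 h, at -0.39, lies within it.

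The difference between the materials in their change over time was tested in its own right. It was called for APRR5 from 0 h to 2 h (-1.08, SE 0.195, adjusted p = 0.0035) and from 0 h to 8 h (-1.06, adjusted p = 0.013), against 6.49% of all genes (2.74% positive and 3.74% negative) and 1.35% (0.815% and 0.538%). These shares are not read against the APRR5 calls, because its high 0 h level in Micro-TOM-EX admitted it to the test. In the fit of all genes the adjusted p was 0.0013 and 0.0048. With a replicate block within each hour it was 0.024 and 0.063, so that the call from 0 h to 8 h was lost, and with the compared groups alone that call was lost as well (adjusted p = 0.068). For both steps Micro-TOM-EX came down from its higher 0 h level, so these values share the 0 h libraries with the difference before salt. In Micro-TOM the 0 h mean was 0.3 FPKM, and the fall of 0.375 to 0 at 2 h was the largest possible. Falls of 1.46 and 1.29, as in Micro-TOM-EX, could not occur there, so these calls are not read as a difference in response. With 0.1 added in place of 1 neither APRR5 call passed (adjusted p = 0.055 and 0.17). None of the other 3 genes passed this limma test in any step, and none of the 4 did from 2 h to 8 h, where 1.92% of genes were called (1.27% positive and 0.652% negative). For APRR1 the step from 2 h to 8 h differed by 0.467 (SE 0.172, unadjusted p = 0.0156, adjusted p = 0.22). For GIGANTEA the step from 0 h to 2 h differed by -0.56 (SE 0.234, unadjusted p = 0.0305, adjusted p = 0.19).

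The other clock genes, found by name, give the setting. Of 30 tested core clock genes other than the 4, 20 were higher and 6 lower at 8 h than at 0 h in Micro-TOM, with a median change of 0.853 against 0.039 over all genes. In Micro-TOM-EX 18 were higher and 7 lower, with a median of 0.737 against -0.004. Of all genes tested 37.0% were higher and 33.6% lower at 8 h in Micro-TOM, and 35.5% and 35.8% in Micro-TOM-EX. At 2 h against 0 h 11 were higher and 13 lower in Micro-TOM, and 9 and 14 in Micro-TOM-EX. The shares of all genes there were 27.5% and 47.5%, and 26.7% and 49.2%. The counts of lower genes at 2 h were near those shares. Under median-ratio scaling the counts at 2 h became 13 and 10, and 11 and 11. TIME FOR COFFEE (LOC101257597) stood at 47.6, 112 and 145 FPKM at 0, 2 and 8 h in Micro-TOM. In Micro-TOM-EX it stood at 45.0, 86.0 and 120. XAP5 CIRCADIAN TIMEKEEPER (LOC101244814) stood at 27.5, 12.6 and 25.6 FPKM in Micro-TOM and at 24.6, 10.3 and 23.2 in Micro-TOM-EX.

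From 0 h to 8 h 4 of the 5 morning factors fell in each material, opposite to the 2 GIGANTEA genes. Of all genes 33.6% fell over that step in Micro-TOM and 35.8% in Micro-TOM-EX. At 2 h 2 of the 5 were lower than at 0 h in Micro-TOM and 3 in Micro-TOM-EX, against 47.5% and 49.2% of all genes. LHY (LOC101261662), the central morning repressor, was at 388 FPKM at 0 h, 441 at 2 h and 16.6 at 8 h in Micro-TOM and at 424, 425 and 10.8 in Micro-TOM-EX. From 2 h to 8 h LHY fell by 4.70 (SE 0.17, adjusted p = 1.2e-11) and by 5.18 (adjusted p = 6.2e-12). REVEILLE 1 (LOC101261079), REVEILLE 7 (LOC101255972) and REVEILLE 8 (LOC101253545) also fell from 0 h to 8 h in both materials, with changes of -3.43, -3.40 and -3.45 in Micro-TOM and -4.19, -4.39 and -4.13 in Micro-TOM-EX. REVEILLE 6 (LOC101259846) did not, with changes of 0.308 (adjusted p = 0.0082) and 0.066 (adjusted p = 0.55). At 2 h, when APRR1 and the GIGANTEA-like gene had risen, the change of LHY since 0 h was 0.198 (adjusted p = 0.3) in Micro-TOM and 0.003 (adjusted p = 0.99) in Micro-TOM-EX.

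Among the 10 pseudo-response regulator genes tested, APRR1 and APRR5 included, 8 were higher and none lower at 8 h than at 0 h in Micro-TOM by limma, and 8 higher and 1 lower in Micro-TOM-EX, the lower being APRR5 (LOC101256648). That gene was tested only through its high 0 h level in Micro-TOM-EX. LOC101258043, among the 8 higher in each material, was tested only through its high level at 8 h. Of all genes 37.0% were higher and 33.6% lower in Micro-TOM, and 35.5% and 35.8% in Micro-TOM-EX. PRR73 (LOC101249224), a homologue of PRR7, went from 1.92 to 57.6 and 48.1 FPKM in Micro-TOM. APRR9 (LOC101262866), the earliest of the series in Arabidopsis, went from 0.46 to 35.9 and 33.1 FPKM. PRR37 (LOC101254785), also related to PRR7, went from 2.76 to 15.9 and 99.1 FPKM and so stood highest at 8 h, like the 2 GIGANTEA genes. APRR1, at 234 FPKM, had the highest group mean of the whole family, and at 2 h in each material it was the most abundant member.

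LNK1 and the LNK1-like gene, coactivators that in Arabidopsis turn on evening genes with REVEILLE 8, followed the course of APRR1. LNK1 (LOC101244909) was at 8.15, 243 and 87.6 FPKM at 0, 2 and 8 h in Micro-TOM and at 12.6, 233 and 87.6 in Micro-TOM-EX. The LNK1-like gene (LOC101266410) was at 4.53, 95.3 and 68.4 FPKM and at 5.97, 83.4 and 56.0. Both rose from 0 h to 2 h and fell from 2 h to 8 h in each material, with changes of 4.82 (SE 0.215, adjusted p = 3.7e-11) and -1.48 (adjusted p = 1.6e-05) for LNK1 in Micro-TOM.

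Genes of the evening complex did not share one course. Of its 11 tested genes 1 was higher and 7 lower at 2 h than at 0 h in Micro-TOM, and 1 and 8 in Micro-TOM-EX, against 47.5% and 49.2% of all genes lower, and under median-ratio scaling 6 were lower in each material. At 8 h 7 were higher and 2 lower than at 0 h in Micro-TOM and 6 and 3 in Micro-TOM-EX. The shares of all genes were 37.0% higher and 33.6% lower, and 35.5% and 35.8%. In Micro-TOM 4 of the 11 were both lower at 2 h and higher at 8 h than at 0 h by limma, and in Micro-TOM-EX 3. The share of all genes with both calls is not given here, so these counts are not read further. EARLY FLOWERING 3 (LOC101268174), the scaffold of the complex, was at 13.6, 3.32 and 29.2 FPKM in Micro-TOM and at 14.2, 2.80 and 27.3 in Micro-TOM-EX. It fell by 1.74 (SE 0.133, adjusted p = 1.1e-08) from 0 h to 2 h and rose by 2.81 (adjusted p = 1.2e-10) from 2 h to 8 h in Micro-TOM. The other EARLY FLOWERING 3 gene, LOC101267430, was at 17.8, 14.1 and 44.7 FPKM in Micro-TOM. By limma its change from 0 h to 2 h was -0.27 (adjusted p = 0.2) there and -0.71 (adjusted p = 0.0024) in Micro-TOM-EX. The latter call was lost under median-ratio scaling (-0.31, adjusted p = 0.18). LOC101257473, described as PCL1 and distinct from the gene with that symbol, was at 0.123, 0.14 and 1.75 FPKM in Micro-TOM. It reached 1 FPKM in libraries of 8 h alone and was tested only through them, and it is among the genes counted as higher at 8 h.

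Partners of GIGANTEA differed among themselves. Adagio 3 (LOC101256908), the counterpart of FKF1, was at 1.07, 0.52 and 84.4 FPKM in Micro-TOM and at 1.17, 0.71 and 89.0 in Micro-TOM-EX, so that it was high at 8 h alone, as GIGANTEA was. From 2 h to 8 h it rose by 5.81 (SE 0.172, adjusted p = 2.7e-12) and 5.73 (adjusted p = 1.7e-12). Adagio 1 (LOC101262932), the counterpart of ZEITLUPE, kept between 33.1 and 46.1 FPKM in all group means, rising from 0 h to 8 h by 0.432 (SE 0.081, adjusted p = 0.00018) and 0.304 (adjusted p = 0.0032). Of 4 tested cyclic dof factors, which FKF1 and GIGANTEA mark for degradation as proteins in Arabidopsis, 3 were lower and 1 was higher at 8 h than at 0 h in each material by limma. Of all genes 33.6% were lower and 37.0% higher in Micro-TOM, and 35.8% and 35.5% in Micro-TOM-EX. Cyclic dof factor 1 (LOC101248009) went from 341 to 51.9 and 8.93 FPKM in Micro-TOM and from 487 to 36.6 and 5.56 in Micro-TOM-EX.

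**Figure D5:**
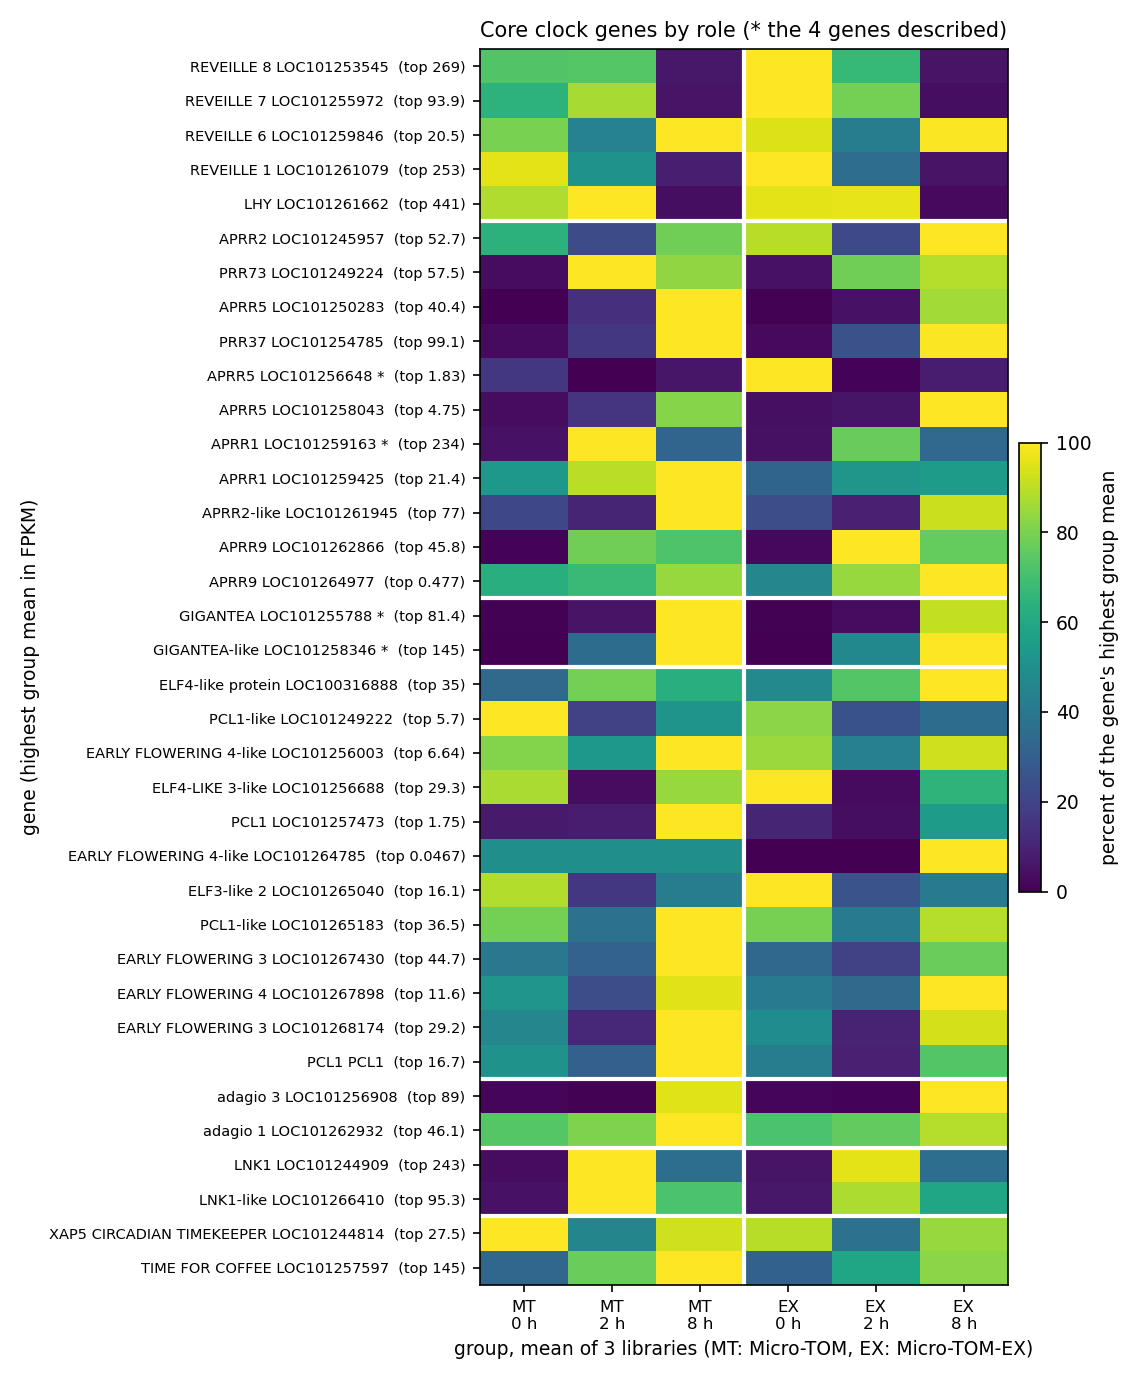
Group means of the 36 core clock genes, as percent of each gene's highest group mean (colour, with that mean in FPKM beside the name), by role from top to bottom and by material and hour from left to right, with the 4 genes starred. Yellow marks the highest mean: GIGANTEA and adagio 3 are bright at 8 h alone, APRR1 and LNK1 are brightest at 2 h, LHY is dark at 8 h, and APRR5 (LOC101256648) is bright in Micro-TOM-EX at 0 h alone.

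The salt kinase that GIGANTEA binds in Arabidopsis did not share its course. SOS2 was at 44.7, 13.0 and 24.4 FPKM at 0, 2 and 8 h in Micro-TOM and at 49.1, 13.6 and 22.7 in Micro-TOM-EX. It fell by 1.71 (SE 0.114, adjusted p = 2.6e-09) and 1.77 (adjusted p = 1.6e-09) from 0 h to 2 h. The sodium antiporter gene sos1, which that kinase activates, was at 11.7, 4.22 and 21.9 FPKM in Micro-TOM and followed the same order in Micro-TOM-EX. Of the 4 SOS pathway genes, only LOC101258661, named calcineurin B-like protein 4, a calcium sensor, was higher at 2 h than at 0 h in either material. It went from 0.23 to 28.0 FPKM in Micro-TOM and from 0.29 to 12.8 in Micro-TOM-EX. The other gene of that name, LOC101262396, went from 5.54 to 0.663 FPKM in Micro-TOM and from 6.48 to 0.29 in Micro-TOM-EX. Of all genes 27.5% were higher at 2 h than at 0 h in Micro-TOM and 26.7% in Micro-TOM-EX.

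The genes whose profile over the 18 libraries was most like that of each member were taken from 11682 named genes with a group mean of at least 5 FPKM, by Pearson correlation of log2(FPKM + 1). The points fall into clusters by hour, so the values describe likeness of course and no more. For the GIGANTEA-like gene the closest were a dnaJ homolog (LOC101267064, r = 0.999, Spearman 0.958), the transaminase GABA-TP1 (r = 0.994) and decapping protein 5 (LOC101255021, r = 0.994). LOC101267064 stood at 0.237, 25.6 and 62.7 FPKM at 0, 2 and 8 h in Micro-TOM.

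For GIGANTEA the closest were the trehalose-6-phosphate synthase TPS1 (r = 0.996, Spearman 0.964), the kinase SRK2I (LOC101251432, r = 0.996) and cullin-1 (LOC101255534, r = 0.993). TPS1 stood at 13.0, 36.8 and 309 FPKM at 0, 2 and 8 h in Micro-TOM. For APRR1 they were MYB80 (LOC101250764, r = 0.997, Spearman 0.963), ABC transporter G family member 25 (LOC101246203, r = 0.995) and the aquaporin TIP1-3-like gene (LOC101255600, r = 0.993). MYB80 stood at 2.15, 323 and 51.7 FPKM.

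For APRR5 likeness was lower. The closest were the two-component response regulator ARR9 (LOC101247174, r = 0.905, Spearman 0.833), MYB48-like (LOC101250698, r = 0.902) and an omega-hydroxypalmitate O-feruloyl transferase (LOC101246931, r = 0.902). ARR9 was higher in Micro-TOM-EX at 0 h, at 87.7 FPKM against 41.4, and lay at 14.5 to 20.0 in the 4 later groups.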

How the data were processed

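The authors deposited FPKM values per gene and library, with 2 decimals, per the file headers. The same deposited table gave the authors' log2 ratios with p-values and q-values for pairs of groups. The tools listed, per the submitters' processing notes, were RSEM 1.2.12, DESeq2 1.4.5, Bowtie2 2.2.5 and HISAT2 2.0.4. Their roles and the genome build are not given in the sources used here. Strand was not given either.

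The members and gene lists were chosen with earlier results of these data known. The 18402 genes reaching 1 FPKM in 3 or more libraries were tested on log2(FPKM + 1) with limma 3.58.1 in R 4.3.3. The model held 6 group means over 18 libraries, with empirical Bayes moderation, a mean trend and Benjamini-Hochberg adjustment per comparison, and was tested on simulated data. Ratios of 2 genes were tested by exact permutation (scipy 1.17.1). Core clock genes were named in full for lists up to 6 genes, otherwise the 3 with the smallest adjusted p at 8 h against 0 h in Micro-TOM.

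Depth came from whole-fragment steps of low FPKM values of 11984 single-transcript genes (93.0 to 95.4% of low values whole within 0.15). Same-numbered libraries were checked for pairing. The deviations of all 3 pairs exceeded a correlation of 0.1 for MT and EX at 0 h (0.48, 0.44 and 0.13) and in no other pair of groups. Alternatives were median-ratio scaling, other filters, a pseudocount of 0.1, the compared groups alone, replicate blocks, both number 2 libraries of 0 h left out, and each library left out in turn. The authors' values were added after seeing the data. Counts were not used here.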

Additional observations from a re-analysis of the deposited data

Results flagged for a closer look

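These values were picked out because the change between hours differed between Micro-TOM-EX and Micro-TOM by limma's test of the difference itself (adjusted p under 0.05). Among the 4 genes this held for APRR5 (LOC101256648), at -1.08 from 0 h to 2 h and -1.06 from 0 h to 8 h. Both values are a description only, because APRR5 was admitted to the test through its Micro-TOM-EX libraries of 0 h alone. Its 0 h mean of 0.3 FPKM in Micro-TOM also left no room for a fall as large as that in Micro-TOM-EX.

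Among clock genes, PRR37 (LOC101254785) differed by 0.68 (adjusted p = 0.037), PRR73 (LOC101249224) by -0.74 (adjusted p = 0.046), and the better expressed APRR5 gene (LOC101250283) by -1.30 (adjusted p = 0.014), all from 0 h to 2 h. Cyclic dof factor 2 (LOC101243956) differed by -0.69 (adjusted p = 0.031) over that step, and cyclic dof factor 1 (LOC101248009) by -1.07 (adjusted p = 0.029) and, from 0 h to 8 h, by -1.17 (adjusted p = 0.048). The phytochrome A-associated F-box gene (LOC101247753) differed by -0.71 (adjusted p = 0.0047) from 0 h to 2 h and by 0.56 (adjusted p = 0.041) from 2 h to 8 h. Calcineurin B-like protein 4 (LOC101258661) differed by -1.14 (adjusted p = 0.032) from 0 h to 2 h.

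Further genes of the lists, named after their values were seen, also differed from 0 h to 2 h. The evening complex genes EARLY FLOWERING 4 (LOC101267898) and PCL1 differed by 0.731 (adjusted p = 0.043) and -1.01 (adjusted p = 0.047), cyclic dof factor 3-like (LOC101252243) by -0.86 (adjusted p = 0.019), CONSTANS interacting protein 4 (CIP4) by -0.44 (adjusted p = 0.032), and PIF4 (LOC101252303) by -0.58 (adjusted p = 0.034). Each of these 5 calls was lost with several single libraries left out.

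Of those named before them, PRR37, PRR73, cyclic dof factors 1 and 2, calcineurin B-like protein 4 and the 8 h against 2 h value of LOC101247753 each lost the call with several single libraries left out. PRR73 without EX2r3, for example, came to -0.65 (adjusted p = 0.13), and PRR37 without MT2r1 to 0.606 (adjusted p = 0.11). A replicate block within each hour ended the 2 h calls of PRR37 (adjusted p = 0.062), PRR73 (0.06), calcineurin B-like protein 4 (0.054), LOC101250283 (0.054), EARLY FLOWERING 4 (0.08), CIP4 (0.083) and PIF4 (0.052), the call of LOC101247753 from 2 h to 8 h (0.14), and that of APRR5 from 0 h to 8 h (0.063). One replicate block over all hours ended those of PRR73 (adjusted p = 0.059), PCL1 (0.053), LOC101247753 from 2 h to 8 h (0.061) and cyclic dof factor 1 from 0 h to 8 h (0.05).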

How the results depend on the processing

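Of 48 changes of the 4 genes (12 comparisons each), 34 kept direction and call under every alternative that gave a value. Over 741 values 706 kept both, 16 lost a call and 4 gained one. The other 15 changed sign or came to 0, all 15 in changes that were not called. APRR5 could not be fitted with a 5 FPKM filter, without both number 2 libraries of 0 h or without any EX 0 h library. The causes were not tested.

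Differences between materials with a changed sign were, for GIGANTEA-like, 0.027 at 8 h (rescaled; also the authors' table) and -0.69 in the 2 h response (pseudocount 0.1), and for GIGANTEA -0.12 at 0 h without both number 2 libraries. That setting made GIGANTEA at 2 h pass (-0.48, adjusted p = 0.044). APRR1 at 2 h was lost at -0.36 (rescaled), -0.39 (compared groups alone, and replicate block within each hour, adjusted p = 0.057) and -0.31 (authors' table). For APRR5 a pseudocount of 0.1 added calls in MT from 0 h to 8 h (-1.04) and in EX from 2 h to 8 h (1.08) and ended those of the 2 h and 8 h responses (-2.07, -1.91). The groups alone ended its calls at 0 h (1.10) and in the 8 h response (-1.06). The replicate block within each hour ended that call too (-1.06) and that in MT from 0 h to 2 h (-0.38), and these 3 were all the member calls a replicate block changed; the libraries share only a number save at 0 h between materials.

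With each library left out, the lowest and highest values were -0.053 and 0.077 for GIGANTEA-like at 8 h between materials, -0.14 and 0.285 for its 2 h response, -0.037 and 0.191 for GIGANTEA at 0 h, -0.65 and -0.34 at 2 h, and -0.53 and -0.29 for APRR1 at 2 h. For APRR5 they were -0.45 and -0.32 in MT from 0 h to 2 h, 0.0 and 0.035 between materials at 2 h, -0.026 and 0.118 at 8 h, and -0.049 and 0.094 for the difference from 2 h to 8 h.

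Genes called between materials numbered 104 at 0 h and 163 at 8 h with the groups alone. For the 8 h response they were 165 (pseudocount 0.1) and 120 (groups alone), and from 2 h to 8 h 197 (5 FPKM filter) and 202 (pseudocount 0.1). With single libraries left out they ranged from 394 to 750 at 0 h, 1190 to 3030 at 2 h, 174 to 316 at 8 h, 668 to 1443 for the 2 h response, 115 to 363 for the 8 h response and 159 to 446 from 2 h to 8 h. Rescaling turned the 8 h against 2 h change of adagio 1 to -0.094 and -0.17 and that of TIME FOR COFFEE in MT to -0.036, and that of CIP4 in EX to -0.002. Below 0.2 FPKM, APRR5 rests on 3 fragments or fewer.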

Other observations

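Values follow for genes of day length and light outside the comparisons above. CONSTANS-LIKE 9-like (LOC101257930) was at 1.78, 0.96 and 52.6 FPKM at 0, 2 and 8 h in Micro-TOM and at 1.54, 0.463 and 46.5 in Micro-TOM-EX, and rose by 4.77 (SE 0.149, adjusted p = 4.2e-12) and 5.04 (adjusted p = 1.5e-12) from 2 h to 8 h. EID1-like F-box protein 3 (LOC101251195) was at 3.31, 150 and 68.2 FPKM in Micro-TOM and at 5.41, 123 and 79.5 in Micro-TOM-EX, and rose by 5.15 (SE 0.2, adjusted p = 9e-12) and 4.28 (adjusted p = 5.8e-11) from 0 h to 2 h. SPA1-RELATED 4-like (LOC101256107), a light signalling gene, changed by -3.48 (SE 0.146, adjusted p = 1.7e-11) and -3.92 (adjusted p = 4.8e-12) from 0 h to 8 h.

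Of 32 tested day-length genes 11 were higher and 15 lower at 8 h than at 0 h in Micro-TOM, and of 24 light input genes 5 and 11, against 37.0% of all genes higher and 33.6% lower. Trichome marker genes, 18 in number, of which 6 were tested, summed to 34.3 to 57.4 FPKM in the libraries of 0 h and 98.7 to 321 at 8 h. Of the 6, limma called 3 higher and 1 lower at 8 h than at 0 h in Micro-TOM (median change 0.307) and 2 higher and none lower in Micro-TOM-EX (0.167), and their part in the values of the 4 genes was not tested.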
